A study of Mus musculus with 139 samples.

Results

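The dose trend of multi-walled carbon nanotubes (MWCNT) in mouse lung 12 months after exposure was measured on 38 arrays, the 12-month vehicle group and the 4 MWCNT groups, of 139 arrays in the series. These were all samples whose source name gave dispersion medium (DM) or MWCNT at 12 months. The arrays were taken by these labels and not by their values, though the groups of mice were chosen with earlier results of these data known. For each of 22180 genes a straight line was drawn through the means of the 5 groups against log2(dose in µg + 1), and the trend is the slope of that line, so that a slope of 0.10 is a change of 0.10 log2 units for each doubling of dose + 1. From DM to 80 µg this axis spans 6.34 units. The spread behind each SE and p-value was estimated over all 138 mice of the series. These include mice sampled at 1 and 6 months and mice given 120 µg crocidolite.

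The animals were male C57BL/J6 mice, 7 weeks old when bought, which received a single suspension placed behind the tongue and breathed in (pharyngeal aspiration). The vehicle, DM, is buffered saline with glucose, mouse serum albumin and a surfactant phospholipid, and every MWCNT dose was given in it, so the controls shared all treatment but the nanotubes. At 12 months there were 8 mice with DM, 6 with 1 µg, 8 with 10 µg, 8 with 40 µg and 8 with 80 µg. The study asked how lung expression changed with increasing MWCNT dose a year after exposure. Each of the 38 arrays carries its own mouse number in the labels and so stands for a separate animal. RNA came from lung tissue without sorting, and no mouse was sampled at more than 1 time. Surfactant protein D, Sftpd, a product of lung epithelium, lay between 9.52 and 10.87 log2 units on the 38 arrays. The mean of 15 markers of type 2 alveolar cells, which make surfactant, lay between 10.19 and 10.69.

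Carbon nanotubes are stiff, durable fibres that the lung clears slowly. Alveolar macrophages engulf inhaled particles, break down what they can in lysosomes and release chemokines that draw in other leukocytes. In long-lasting airway inflammation, interleukins of the type 2 response act through the transcription factor STAT6, airway cells turn to making mucus, and macrophages take on an alternative activation state marked by Retnla and chitinase-like proteins.

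Several arrays stood apart. At 80 µg, replicates 1 and 5 had mean levels of 6.81 and 7.18 over 10 squamous epithelium markers, against 2.56 to 3.42 on the other 36 arrays. Krt4, a keratin of squamous epithelium, was at 11.5 and 12.0 there, and Acta1, the skeletal muscle actin, at 10.0 and 10.6. Acta1 was also high on DM replicate 2, at 7.92, against 4.56 or less on all remaining arrays. The squamous mean of DM replicate 2 was 3.18. DM replicate 2, 40 µg replicate 1 and 80 µg replicate 2 had the lowest median correlations with the other arrays (0.961, 0.968 and 0.970, against 0.973 to 0.985). The 5th percentile of an array's values, a measure of its dim end, was 1.87 and 1.81 on the last 2 of these. Its group medians were 1.44 with DM, 1.405 at 1 µg, 1.45 at 10 µg, 1.51 at 40 µg and 1.5 at 80 µg. They were thus highest at 40 and 80 µg. The word replacement stands in 16 of the 38 sample titles, 3 of 8 with DM, 2 of 6 at 1 µg, 2 of 8 at 10 µg, 4 of 8 at 40 µg and 5 of 8 at 80 µg, and what it means there is unknown. The part of these arrays in the trend is given below as counts and p-values without them, and was otherwise not tested.

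With increasing dose 131 genes rose, 0.591% of those tested, and 136 fell, 0.613%, at an adjusted p under 0.05 (1.2% in all; limma, Benjamini-Hochberg over 22180 genes, two-sided). The unadjusted p was under 0.05 for 3957 genes, 1692 with slopes above 0 and 2265 with slopes below 0. Counts at an unadjusted p given below for single lists are to be read against these, and no list was tested as a set. The balance of rising to falling depended on the setting: 248 to 131 after quantile normalization, 234 to 108 with arrays centred on their medians, 195 to 26 with the 5th percentile as a covariate, 89 to 44 by a line on the 38 arrays alone and 343 to 784 with array weights. Rising slopes were the steeper: their median was 0.098 with a range from 0.033 to 0.73, whereas the falling slopes had a median of -0.058 and went no lower than -0.12. The median slope of all genes was -0.0009. No gene departed from a straight line in log2(dose + 1) at an adjusted p under 0.05 (limma F test over the 3 remaining contrasts of the 5 means; smallest adjusted p 0.23, and 1924 genes at an unadjusted p under 0.05). That count was 429 among arrays without the word replacement and 26 with array weights.

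Contrasts with DM at single doses called few genes. In those limma contrasts, which share the DM mice, 0 genes passed at 1 µg (595 at an unadjusted p under 0.05) and 0 at 10 µg (945 unadjusted). At 40 µg 6 were higher and 2 lower, 0.0271% and 0.00902% of genes tested. At 80 µg 35 were higher and 4 lower, 0.158% and 0.018%. All 80 µg mice lay above every DM mouse in 22 genes, 0.0992% of all, and below every DM mouse in 5, 0.0225%.

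**Figure D1:**
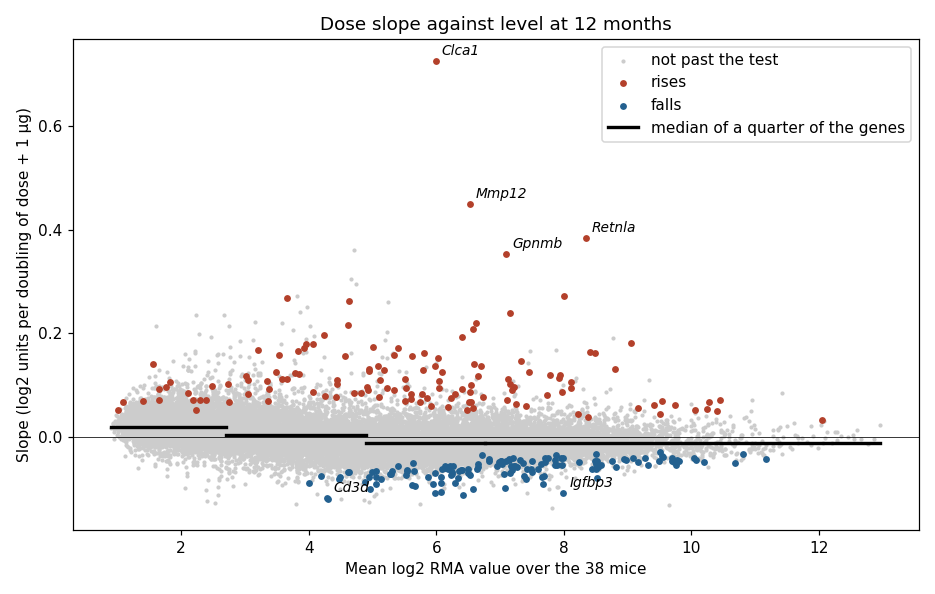
Slope of each of the 22180 genes at 12 months (vertical axis, log2 units per doubling of dose + 1 µg) against its mean log2 RMA value over the 38 mice (horizontal axis). Red points are the 131 rising genes, blue points the 136 falling genes, grey points all others, and black bars the median slopes of 4 equal groups of genes by mean value, which run from 0.020 in the dimmest to -0.012 in the brightest.

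Genes dim on the array tended to have slopes above 0 and bright genes slopes slightly below, as the plot of slope against array value shows. In the dimmest 5545 genes the median slope was 0.020, with 14 rising and 0 falling. In the brightest 5545 it was -0.012, with 37 rising and 79 falling. The mean value here is a signal of the probes and not an amount of RNA. Of the 131 rising genes, 16 had a mean value under 3 (12.2%, against 29.8% of all genes), and 7 were olfactory, vomeronasal or taste receptors (5.34%, against 6.52%).

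The steepest rise was that of Clca1, a protein that airway mucous cells secrete. Its log2 values were 3.30 to 4.75 (median 3.69) in the DM mice, 3.77 to 5.47 (4.12) at 1 µg, 3.75 to 8.56 (5.24) at 10 µg, 5.09 to 9.76 (6.94) at 40 µg and 6.70 to 9.76 (8.29) at 80 µg. All 8 mice at 40 µg and all 8 at 80 µg were above every DM mouse, as were 6 of 8 at 10 µg, and mice of the 10 and 40 µg groups overlapped. The slope was 0.73 ± 0.085 (SE; adjusted p = 2.41e-10). Differences from DM, which share the DM mice, were 0.63, 1.82, 3.70 and 4.70 from the lowest to the highest dose, the last a 26.1-fold difference. In whole lung, more mucous cells and more RNA per mucous cell cannot be told apart, and the same holds for every cell type named below.

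The gene lists used here and below were chosen with earlier results of these data known, so a high count in a list is not an independent result. Of 15 mucous cell genes, 7 rose and 0 fell, with a median slope of 0.11. Among arrays without the word replacement 10 of them rose, with a median slope of 0.19, and there the slope of Clca1 was 0.93 (adjusted p = 4.84e-07), against 0.56 (adjusted p = 0.00938) among arrays with it, a difference that was not tested. Fcgbp, which binds to mucus gels, had a median of 4.60 (range 3.79 to 4.68) in the DM mice and 5.53 (4.71 to 6.86) at 80 µg, and its slope was 0.17 ± 0.038 (SE; adjusted p = 0.0058). Agr2, an endoplasmic reticulum protein that mucins need to fold, had a slope of 0.16 ± 0.038 (SE; adjusted p = 0.0151). Muc5b, the main gel-forming mucin of mouse airways, had a median of 7.63 (range 7.36 to 8.20) in the DM mice and 8.49 (7.94 to 9.51) at 80 µg and a slope of 0.11 ± 0.023 (SE; adjusted p = 0.00535). Tff2, a trefoil peptide secreted with mucus, rose at a slope of 0.19 ± 0.043 (SE; adjusted p = 0.00551), and Gp2, a glycoprotein of mucosal surfaces, at 0.17 ± 0.035 (SE; adjusted p = 0.00237).

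Pigr, the receptor that carries polymeric immunoglobulins across epithelium, also belongs to this list. It had a median of 7.93 (range 7.48 to 8.55) in the DM mice and 8.88 (8.43 to 10.54) at 80 µg. Its slope was 0.16 ± 0.028 (SE; adjusted p = 0.000114), and 7 of 8 mice at 80 µg were above every DM mouse. Muc5ac, the mucin of metaplastic goblet cells, did not pass, at 0.10 ± 0.036 (SE; adjusted p = 0.124), although 6 of 6 mice at 1 µg, 5 of 8 at 10 µg, 6 of 8 at 40 µg and 7 of 8 at 80 µg were above every DM mouse. Scgb3a1, a secretoglobin and the 1 of 9 club cell genes that passed, rose at a slope of 0.13 ± 0.032 (SE; adjusted p = 0.0153). Fer1l6, a member of the ferlin family of membrane proteins, had a median of 2.82 (range 2.55 to 3.16) in the DM mice and 3.79 (3.31 to 4.72) at 80 µg and a slope of 0.17 ± 0.039 (SE; adjusted p = 0.0103).

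The macrophage genes came next. Mmp12, the macrophage elastase, ranged over 4.90 to 5.52 (median 5.42) in the DM mice, 4.74 to 5.82 (5.46) at 1 µg, 5.16 to 6.52 (6.28) at 10 µg, 6.34 to 8.06 (7.14) at 40 µg and 7.73 to 8.64 (8.21) at 80 µg. The 80 µg mice were all above every DM mouse, and so were the 40 µg mice and 7 of 8 at 10 µg, while the 1 µg mice spread on both sides of the DM range. The slope was 0.45 ± 0.047 (SE; adjusted p = 2.15e-12), and at 80 µg the level was 7.39-fold that with DM.

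Gpnmb, a membrane glycoprotein of lipid-laden macrophages, was at 5.98 to 6.40 (median 6.24) in the DM mice, 5.87 to 6.47 (6.12) at 1 µg, 6.23 to 7.29 (6.76) at 10 µg, 7.04 to 8.64 (7.42) at 40 µg and 8.08 to 9.33 (8.24) at 80 µg. No mouse given 40 or 80 µg was within the DM range, and 7 of 8 at 10 µg were above it. Its slope was 0.35 ± 0.042 (SE; adjusted p = 4.2e-10).

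Ctsk, the lysosomal protease cathepsin K, was at 5.47 to 6.34 (median 6.15) in the DM mice, 5.67 to 6.55 (6.03) at 1 µg, 5.91 to 6.52 (6.32) at 10 µg, 6.56 to 7.75 (7.00) at 40 µg and 7.18 to 8.10 (7.46) at 80 µg. Mice at 40 and 80 µg were all above every DM mouse, and the groups at 1 and 10 µg overlapped with DM. The slope was 0.22 ± 0.034 (SE; adjusted p = 9.37e-06).

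Trem2, a macrophage receptor for lipids and lipoproteins, was at 4.55 to 5.23 (median 5.00) in the DM mice, 4.12 to 5.23 (4.98) at 1 µg, 4.88 to 5.45 (5.08) at 10 µg, 4.78 to 6.00 (5.48) at 40 µg and 5.53 to 6.63 (6.06) at 80 µg. Only the 80 µg group was wholly above DM, with 6 of 8 mice above it at 40 µg. Its slope was 0.16 ± 0.032 (SE; adjusted p = 0.00247).

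**Figure D2:**
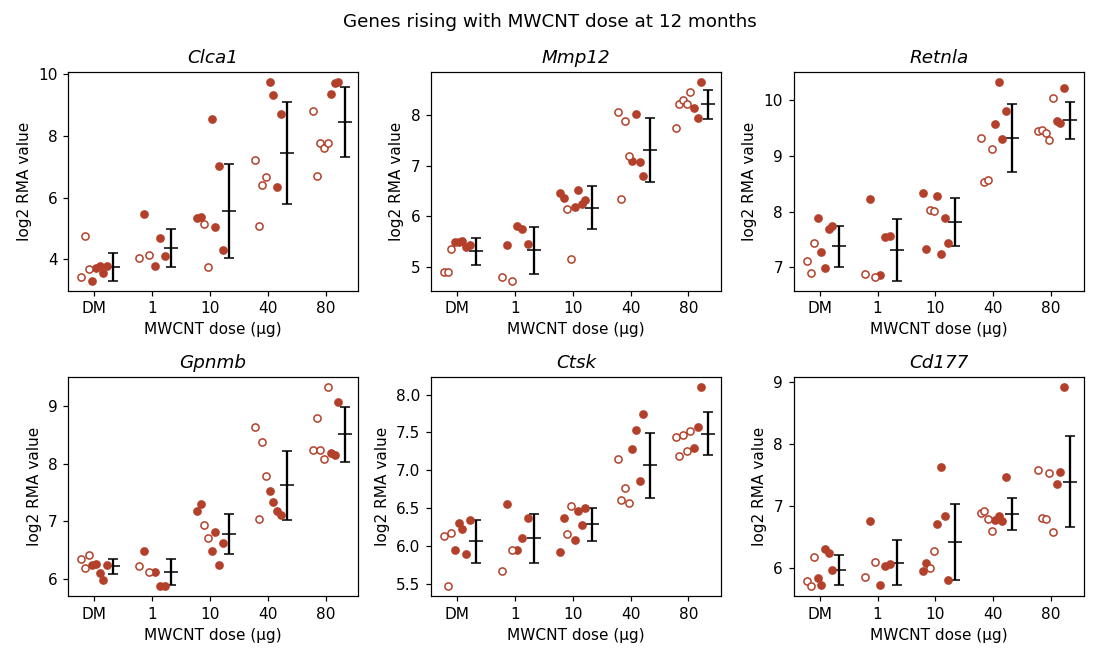
log2 RMA values (vertical axes) of 6 rising genes in each of the 38 mice by MWCNT dose (horizontal axes, DM and 1 to 80 µg). Filled points are mice without and open points mice with the word replacement in the sample title, and black bars are the mean ± SD of a group; for all 6 genes the 8 mice at 40 µg and the 8 at 80 µg are above every DM mouse.

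In the list of 20 lipid-laden macrophage genes 9 rose and 0 fell, with a median slope of 0.053. Beside those described, Ms4a7, a membrane protein of tissue macrophages, had a median of 4.98 (range 4.33 to 5.26) in the DM mice and 5.84 (5.77 to 6.29) at 80 µg and rose at a slope of 0.17 ± 0.028 (SE; adjusted p = 1.87e-05). Cd68, a lysosomal membrane protein used as a macrophage marker, had a median of 7.65 (range 7.21 to 8.04) in the DM mice and 8.55 (8.07 to 9.08) at 80 µg, and 8 of 8 mice at 80 µg were above every DM mouse. Lgals3, galectin-3, was likewise above every DM mouse in 8 of 8. The fatty acid carrier Fabp5 rose at a slope of 0.11 ± 0.026 (SE; adjusted p = 0.00879), and Atp6v0d2, a subunit of the proton pump that acidifies lysosomes, at 0.13 ± 0.032 (SE; adjusted p = 0.0235). Itgax, the integrin subunit CD11c of alveolar macrophages and dendritic cells, is not on this list and rose at a slope of 0.096 ± 0.024 (SE; adjusted p = 0.0233).

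Among 17 lysosomal genes 3 rose and 0 fell, with a median slope of 0.014: Ctsk and the cathepsins Ctsd and Ctsb. Ctsb was 10.14 at the DM median and 10.45 at the 80 µg median, a small step in which all 8 mice at 80 µg were above every DM mouse. Adam8, a membrane metalloprotease of leukocytes, was the other of 17 matrix proteases and inhibitors that rose beside Mmp12, at 0.093 ± 0.020 (SE; adjusted p = 0.00504). Timp1, the inhibitor of metalloproteases often raised in fibrosis, had a slope of 0.078 ± 0.027 (SE; adjusted p = 0.111) and did not pass.

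Retnla, a secreted resistin-like protein that marks alternative activation, was at 6.89 to 7.88 (median 7.35) in the DM mice, 6.83 to 8.22 (7.22) at 1 µg, 7.23 to 8.33 (7.95) at 10 µg, 8.54 to 10.33 (9.31) at 40 µg and 9.28 to 10.21 (9.53) at 80 µg. Every mouse at 40 and 80 µg was above every DM mouse, and the 40 and 80 µg groups overlapped with each other. Its slope was 0.38 ± 0.041 (SE; adjusted p = 3.17e-12), with differences from DM of -0.06, 0.44, 1.94 and 2.26 from the lowest to the highest dose. In the list of alternative activation and chitinase-like genes 3 of 12 rose and 0 fell (Retnla, Chil1 and Ccl17), with a median slope of 0.035.

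Promoters of genes that moved with dose are shown for Retnla and Gpnmb, the steepest risers for which RefSeq promoter sequence (GRCm38.p6) held a match to a motif searched, so that the matches can be read in place. Each is the 250 bases before the gene's start, 5′ to 3′ on the gene's strand, with matches in capitals. For Retnla (chr16:48842359-48842608, forward strand) the match at -145 is the STAT6 motif TTCNNNNGAA and the one at -179 the RUNX motif TGTGGT on the other strand. For Gpnmb (chr6:49036268-49036517, forward strand) the match is RUNX at -175, also on the other strand.
Retnla: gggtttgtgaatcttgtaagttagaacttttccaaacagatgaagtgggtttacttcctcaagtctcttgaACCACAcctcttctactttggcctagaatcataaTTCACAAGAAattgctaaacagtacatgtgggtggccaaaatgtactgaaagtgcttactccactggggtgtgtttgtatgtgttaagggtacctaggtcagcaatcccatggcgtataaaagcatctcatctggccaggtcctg
Gpnmb: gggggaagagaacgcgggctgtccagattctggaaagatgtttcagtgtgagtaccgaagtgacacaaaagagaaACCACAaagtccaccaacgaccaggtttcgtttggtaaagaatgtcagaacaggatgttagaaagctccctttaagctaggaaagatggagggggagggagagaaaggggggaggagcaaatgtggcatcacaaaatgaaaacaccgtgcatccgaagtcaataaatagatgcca

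Motifs were searched on both strands in the promoters of the 15 genes with the highest and the 15 with the lowest slopes that passed, of which 11 and 12 had an entry. TTCNNNNGAA was in 3 of 11 rising genes (Retnla, Lcn2 and Oas1g) and 0 of 12 falling genes, and in 5.86% of 27025 promoters of the same length. TGTGGT was in 3 of 11 (Retnla, Gpnmb and Cxcr1) and 2 of 12 (Cxcr6 and Igfbp3), against 14.2%. The AP-1 motif TGANTCA was in 1 of 11 and 1 of 12 (6.87% of all), the GATA motif AGATAA in 1 of 11 and 0 of 12 (10.3%), and the E-box CACGTG in 0 and 0 (6.05%). The promoters of Mmp12 and Cd3d held no match to any of these motifs. All matches are of letters in a fixed window, with no test.

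Of 17 CC chemokines and receptors 5 rose and 0 fell, all of them ligands, with a median slope of 0.048. Ccl22 and Ccl17, ligands of the receptor Ccr4, rose at a slope of 0.14 ± 0.026 (SE; adjusted p = 0.000937) and 0.14 ± 0.034 (SE; adjusted p = 0.0191). Ccl22 was above every DM mouse in 8 of 8 mice at 80 µg, with a median of 5.52 against 4.94. Ccl3, an attractant of monocytes and other leukocytes, had a median of 5.45 (range 4.93 to 6.08) in the DM mice and 6.38 (5.95 to 6.79) at 80 µg and rose at a slope of 0.16 ± 0.031 (SE; adjusted p = 0.00115). Ccl9 and Ccl6, made by macrophages and other myeloid cells, rose at a slope of 0.12 ± 0.027 (SE; adjusted p = 0.00834) and 0.11 ± 0.030 (SE; adjusted p = 0.036). Cxcl17, a chemokine of mucosal epithelium that was not on either chemokine list, had a median of 7.88 (range 7.39 to 7.94) in the DM mice and 8.39 (7.89 to 9.11) at 80 µg and a slope of 0.094 ± 0.019 (SE; adjusted p = 0.00298). In the list of 16 CXC chemokines and receptors 0 rose and 2 fell, the receptors Cxcr6 and Cxcr3. Cxcl5, an attractant of neutrophils, had a slope of 0.069 ± 0.043 (SE; adjusted p = 0.396).

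Cd177, a surface glycoprotein of neutrophils, was at 5.71 to 6.32 (median 5.90) in the DM mice, 5.73 to 6.76 (6.05) at 1 µg, 5.82 to 7.63 (6.18) at 10 µg, 6.60 to 7.47 (6.81) at 40 µg and 6.58 to 8.92 (7.44) at 80 µg. All mice at 40 and 80 µg were above every DM mouse, and 80 µg replicate 8 was far above the rest of its group. The slope was 0.21 ± 0.031 (SE; adjusted p = 2.21e-06). Cd177 was the only 1 of 13 neutrophil genes that rose, 0 fell, and the median slope of that list was -0.0002. Cxcr1, a CXC receptor for neutrophil-attracting chemokines that was on neither this list nor the CXC list, rose at a slope of 0.20 ± 0.036 (SE; adjusted p = 0.000526).

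Lcn2, which binds bacterial iron carriers, was at 8.16 to 8.93 (median 8.57) in the DM mice, 7.82 to 8.86 (8.35) at 1 µg, 8.63 to 10.31 (9.02) at 10 µg, 8.91 to 9.71 (9.21) at 40 µg and 8.99 to 10.52 (9.63) at 80 µg. All 8 mice at 80 µg and 7 of 8 at 40 µg were above every DM mouse. The slope was 0.18 ± 0.027 (SE; adjusted p = 2.14e-06). Saa3, an acute phase protein, rose at a slope of 0.26 ± 0.062 (SE; adjusted p = 0.0126). These were the 2 of 13 acute phase genes that rose, and the slopes of all 13 were above 0 (median 0.037). Of 12 complement genes 3 rose: C3ar1, the receptor for the fragment C3a (0.12 ± 0.026, SE, adjusted p = 0.00325), Cfb, factor B of the alternative pathway (0.091 ± 0.025, SE, adjusted p = 0.0413), and C1qa (0.086 ± 0.024, SE, adjusted p = 0.0483). Il1rn, the antagonist of the interleukin-1 receptor, was the only 1 of 12 IL-1 and inflammasome genes to pass, at 0.077 ± 0.021 (SE; adjusted p = 0.0422). Slc7a11, the cystine transporter, was the only 1 of 12 NRF2 and oxidative stress genes to pass (0.17 ± 0.036, SE, adjusted p = 0.00535). Of these 12, 4 had slopes above 0 at an unadjusted p under 0.05.

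A pair of antibody gene segments rose. Igh-VS107, an immunoglobulin heavy chain segment, had a median of 7.14 (range 6.82 to 7.73) in the DM mice and 9.06 (8.57 to 10.05) at 80 µg and a slope of 0.27 ± 0.054 (SE; adjusted p = 0.00154). Iglv1, a light chain segment, rose at a slope of 0.24 ± 0.058 (SE; adjusted p = 0.0161). Such segments are near copies of one another, so the probes may not tell them apart. Jchain, which joins polymeric antibodies, had a slope of 0.17 ± 0.062 (SE; adjusted p = 0.137) and did not pass. Of 12 plasma cell genes 1 rose and 0 fell (median slope 0.003).

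Genes of ciliated cells had slopes above 0 in 11 of 11 cases, 6 of them at an unadjusted p under 0.05, with a median of 0.044, but 1 passed (5 among arrays without the word replacement). This was Cfap126, a cilium-associated protein, which had a median of 5.53 (range 5.13 to 5.86) in the DM mice and 5.95 (5.38 to 6.29) at 80 µg and a slope of 0.068 ± 0.016 (SE; adjusted p = 0.00901). Outside the list, and chosen after their values were seen, Cfap61, another cilium-associated protein, rose at a slope of 0.059 ± 0.016 (SE; adjusted p = 0.0443), and Cdhr3, a cadherin-related protein of ciliated cells, at 0.061 ± 0.017 (SE; adjusted p = 0.0462). Sprr1a, of the cornified envelope of squamous epithelium, rose at a slope of 0.22 ± 0.059 (SE; adjusted p = 0.0422) with the 2 arrays high in squamous markers. Its adjusted p was 0.191 without them.

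**Figure D3:**
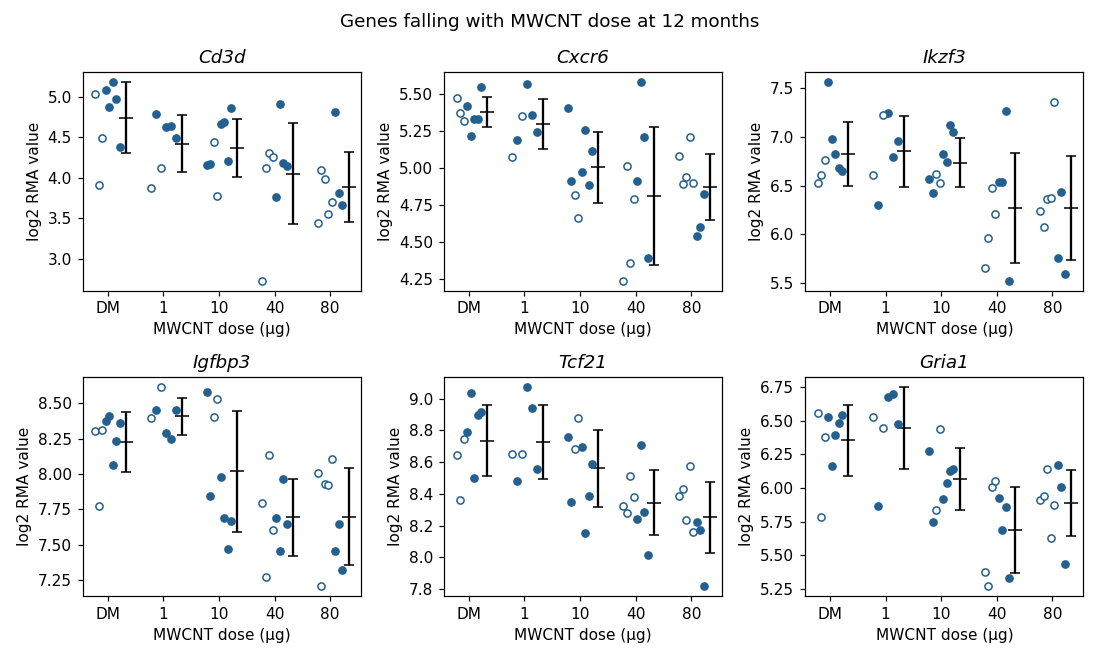
log2 RMA values (vertical axes) of 6 falling genes in each of the 38 mice by MWCNT dose (horizontal axes, DM and 1 to 80 µg). Filled points are mice without and open points mice with the word replacement in the sample title, and black bars are the mean ± SD of a group; Cxcr6 is the gene of the 6 with all 8 mice at 80 µg below every DM mouse, and the other 5 overlap with DM.

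Falling genes moved by less. The lowest slope among the genes named was that of Cd3d, a chain of the T cell receptor complex, which was at 3.91 to 5.19 (median 4.93) in the DM mice, 3.88 to 4.78 (4.56) at 1 µg, 3.77 to 4.87 (4.32) at 10 µg, 2.73 to 4.91 (4.16) at 40 µg and 3.44 to 4.82 (3.76) at 80 µg. At 80 µg 5 of 8 mice were below every DM mouse, and every dose group overlapped with DM. Its slope was -0.12 ± 0.026 (SE; adjusted p = 0.00535). The other chains measured did not pass: Cd3e had -0.059 ± 0.022 (SE; adjusted p = 0.137) and Cd3g -0.043 ± 0.020 (SE; adjusted p = 0.24). Of 21 T cell genes 0 rose and 1 fell, and the list's median was -0.039. Slopes were below 0 for 20 of them, 11 at an unadjusted p under 0.05. Of all 22180 genes, 2265 had a slope below 0 at an unadjusted p under 0.05.

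Cxcr6, a chemokine receptor of resident memory T cells and other lymphocytes, was at 5.22 to 5.55 (median 5.35) in the DM mice, 5.08 to 5.57 (5.30) at 1 µg, 4.66 to 5.41 (4.94) at 10 µg, 4.24 to 5.58 (4.85) at 40 µg and 4.54 to 5.21 (4.90) at 80 µg. All 8 mice at 80 µg, 7 of 8 at 40 µg and 6 of 8 at 10 µg were below every DM mouse. The slope was -0.090 ± 0.017 (SE; adjusted p = 0.00122). Cxcr3, a receptor of activated T cells, fell with a slope of -0.067 ± 0.017 (SE; adjusted p = 0.0228). Among 15 genes of NK and cytotoxic lymphocytes 1 fell, the protease Ctsw (-0.071 ± 0.020, SE, adjusted p = 0.0454), 0 rose and the median slope was -0.043.

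The Cxcr6 promoter is shown because its RUNX match lies close to the gene's start, at -10 on the other strand (chr9:123806227-123806476, forward strand, RefSeq, GRCm38.p6, drawn as above).
Cxcr6: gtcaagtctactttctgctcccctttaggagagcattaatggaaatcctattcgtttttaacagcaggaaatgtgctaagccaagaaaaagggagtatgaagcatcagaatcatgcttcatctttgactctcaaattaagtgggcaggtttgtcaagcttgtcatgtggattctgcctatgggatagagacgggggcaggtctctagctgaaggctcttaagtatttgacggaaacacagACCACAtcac

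Genes of B cells had slopes below 0 in all 13 cases, each at an unadjusted p under 0.05, with a median of -0.079, and 3 passed. The mean level of the 13 genes was 7.10 with DM, 7.03 at 1 µg, 6.98 at 10 µg, 6.68 at 40 µg and 6.63 at 80 µg, and the 80 µg mice ranged from 5.97 to 7.27 against 6.79 to 7.50 with DM, so that the groups overlapped. Swap70, a signalling protein of activated B cells, had a median of 8.03 (range 7.83 to 8.18) in the DM mice and 7.71 (7.47 to 7.90) at 80 µg and a slope of -0.053 ± 0.011 (SE; adjusted p = 0.00212), with 7 of 8 mice below every DM mouse. Bank1, an adaptor of B cell receptor signalling, had a slope of -0.092 ± 0.026 (SE; adjusted p = 0.0473), and Fcrla, an Fc receptor-like protein of B cells, -0.092 ± 0.024 (SE; adjusted p = 0.0346).

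Some of the lowest slopes that passed belonged to genes not on that list. Ikzf3, the lymphocyte transcription factor Aiolos, was at 6.53 to 7.57 (median 6.72) in the DM mice, 6.30 to 7.25 (6.87) at 1 µg, 6.42 to 7.12 (6.68) at 10 µg, 5.52 to 7.26 (6.34) at 40 µg and 5.59 to 7.36 (6.30) at 80 µg. At 80 µg 7 of 8 mice were below every DM mouse and 1 was within the DM range. The slope was -0.10 ± 0.025 (SE; adjusted p = 0.0227). Bcl11a, a transcription factor of B and dendritic cell precursors, was below every DM mouse in 7 of 8 mice at 80 µg, with a slope of -0.090 ± 0.020 (SE; adjusted p = 0.00822). Spib, Siglecg and Fcrl1, a transcription factor and a pair of surface receptors of B cells, had slopes of -0.10 ± 0.029 (SE; adjusted p = 0.0489), -0.094 ± 0.023 (SE; adjusted p = 0.0165) and -0.091 ± 0.024 (SE; adjusted p = 0.0281).

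The counts of falling lymphocyte genes moved with the arrays used and with a covariate. For B cells 9 of 13 fell without the 2 arrays high in squamous markers, 6 among arrays without the word replacement and 1 with the 5th percentile of the array as a covariate. Bank1, Fcrla, Fcrl1, Ikzf3 and Spib lost their call when any of 19, 11, 10, 4 and 25 of the 38 arrays was left out. Without 80 µg replicate 8, one of these arrays for each, their slopes were -0.070, -0.082, -0.078, -0.091 and -0.088, with adjusted p-values of 0.142, 0.0915, 0.0934, 0.0756 and 0.118. By a line on the 38 arrays alone, the adjusted p-values in limma were 0.137, 0.0668, 0.108, 0.0696 and 0.131 in the same order.

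Fibroblast genes fell in 4 of 12 cases, with 0 rising and a median slope of -0.043. Pdgfra, the receptor for platelet-derived growth factor on lung fibroblasts, was at 10.19 to 10.57 (median 10.40) in the DM mice, 10.07 to 10.47 (10.29) at 1 µg, 9.93 to 10.44 (10.21) at 10 µg, 9.79 to 10.42 (10.13) at 40 µg and 9.76 to 10.18 (10.08) at 80 µg. All 8 mice at 80 µg were below every DM mouse, and 6 of 8 were at 40 µg. The slope was -0.049 ± 0.011 (SE; adjusted p = 0.00535). Tcf21, a transcription factor of lung mesenchyme, had a median of 8.77 (range 8.36 to 9.04) in the DM mice and 8.23 (7.82 to 8.58) at 80 µg and a slope of -0.080 ± 0.018 (SE; adjusted p = 0.00879). Itga8, an integrin subunit, and its matrix ligand nephronectin, Npnt, both fell, with slopes of -0.054 ± 0.012 (SE; adjusted p = 0.00576) and -0.051 ± 0.013 (SE; adjusted p = 0.0223). Npnt was lowest at 40 µg, where 7 of 8 mice were below every DM mouse, against 3 of 8 at 80 µg.

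Of 19 collagen and structural matrix genes 0 rose and 1 fell, Postn, periostin of the extracellular matrix, with -0.049 ± 0.014 (SE; adjusted p = 0.0458), and the median slope was -0.015. Col1a1, the main chain of fibrillar collagen, ranged from 7.20 to 8.60 in the DM mice and from 7.63 to 8.99 at 80 µg, so that the groups overlapped. Its slope was -0.005 ± 0.022 (SE; adjusted p = 0.928), and its sign was above 0 after quantile normalization (0.0038) or centring of the arrays (0.0016). Of 18 TGF-beta ligands, receptors and Smads limma called 0, with a median slope of -0.018 and 5 genes below 0 at an unadjusted p under 0.05.

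Among falling genes on none of the lists, both subunits of the soluble guanylate cyclase, the receptor for nitric oxide, fell, with slopes of -0.046 ± 0.012 (SE; adjusted p = 0.0396) for Gucy1a1 and -0.055 ± 0.013 (SE; adjusted p = 0.0144) for Gucy1b1. Prkg2, a protein kinase activated by cyclic GMP, had a slope of -0.089 ± 0.022 (SE; adjusted p = 0.0212). Mylk, the kinase of myosin light chains, had a median of 9.02 (range 8.60 to 9.20) in the DM mice and 8.69 (8.43 to 9.01) at 80 µg and a slope of -0.059 ± 0.013 (SE; adjusted p = 0.00879), and vinculin, Vcl, of cell adhesions, -0.045 ± 0.011 (SE; adjusted p = 0.0126). With the 5th percentile of the array as a covariate the adjusted p was 0.086 for Gucy1a1, 0.0547 for Gucy1b1, 0.135 for Prkg2 and 0.0625 for Vcl. Gucy1a1, Gucy1b1, Mylk and Vcl were chosen after their values were seen. Of 10 smooth muscle genes, a list without these, limma called 0, although all 10 slopes were below 0 (median -0.062, 4 at an unadjusted p under 0.05). Cardiac muscle genes likewise had 0 calls of 11 in limma and a median of -0.065, with 6 below 0 at an unadjusted p under 0.05. The tissue that the cardiac RNA came from was not tested. Among arrays without the word replacement 3 of the 10 smooth muscle genes and 4 of the 11 cardiac genes fell, and with array weights 4 and 3.

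Igfbp3, a secreted binder of insulin-like growth factors, was at 7.77 to 8.41 (median 8.31) in the DM mice, 8.25 to 8.61 (8.42) at 1 µg, 7.47 to 8.58 (7.91) at 10 µg, 7.27 to 8.13 (7.67) at 40 µg and 7.21 to 8.11 (7.78) at 80 µg. No 1 µg mouse was below every DM mouse, and at 40 and 80 µg 5 and 4 of 8 were below every DM mouse. Its slope was -0.11 ± 0.020 (SE; adjusted p = 0.000623). Igf1, insulin-like growth factor 1, rose at a slope of 0.11 ± 0.024 (SE; adjusted p = 0.00394).

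Gria1, a subunit of glutamate receptors, was at 5.79 to 6.56 (median 6.44) in the DM mice, 5.87 to 6.70 (6.50) at 1 µg, 5.75 to 6.44 (6.08) at 10 µg, 5.27 to 6.05 (5.77) at 40 µg and 5.43 to 6.17 (5.92) at 80 µg. The lowest group was 40 µg, not 80 µg, and both overlapped with DM. The slope was -0.11 ± 0.021 (SE; adjusted p = 0.00154). Tubb4a, a beta-tubulin, had its lowest values at 40 µg as well (5.37 to 6.21, against 6.17 to 7.09 with DM), with -0.11 ± 0.027 (SE; adjusted p = 0.0127). Angpt1, a growth factor for endothelial cells, Scube2, a secreted signalling protein, and Prdm6, a regulator of smooth muscle, had slopes of -0.061 ± 0.016 (SE; adjusted p = 0.0305), -0.076 ± 0.020 (SE; adjusted p = 0.0368) and -0.070 ± 0.014 (SE; adjusted p = 0.00133). The transcript BE692007 and Ube2cbp had slopes of -0.11 ± 0.030 (SE; adjusted p = 0.0427) and -0.089 ± 0.025 (SE; adjusted p = 0.0462). The adjusted p with the 5th percentile as a covariate was 0.0556 for Tubb4a, 0.143 for Angpt1 and 0.18 for Scube2. It was 0.264 for BE692007 and 0.118 for Ube2cbp, while Gria1 (0.00746) and Prdm6 (0.00506) still passed. Of 16 endothelial genes limma called 0, with all slopes below 0, 11 of them at an unadjusted p under 0.05, and a median of -0.035.

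**Figure D4:**
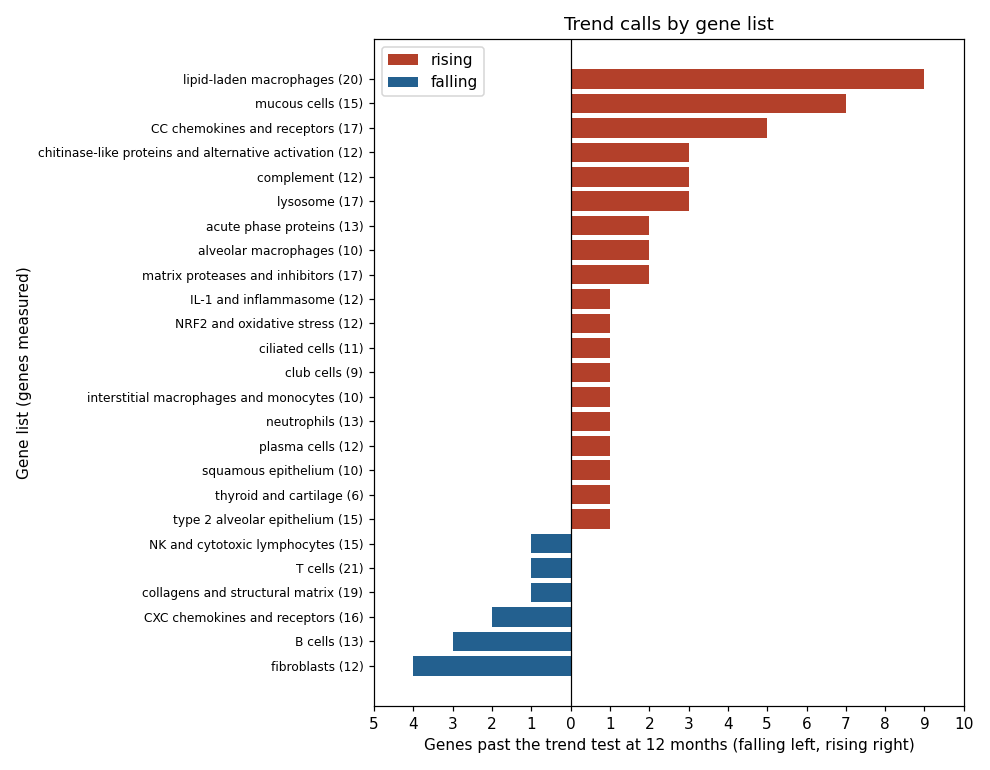
Number of genes past the trend test at 12 months in each of the 25 gene lists with any call (rising to the right in red, falling to the left in blue), with the number of genes measured in brackets. Lipid-laden macrophages (9 of 20) and mucous cells (7 of 15) have the highest counts of rising genes, and fibroblasts (4 of 12) and B cells (3 of 13) of falling genes. The lists were chosen with earlier results of these data known, and over all genes 0.591% rose and 0.613% fell.

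The other 20 of 45 lists held no call in limma, among them eosinophils, type 2 cytokines and alarmins, interferon-stimulated genes, the cell cycle and p53 targets, as the plot of calls by list shows. Median slopes of those 5 were -0.0003, 0.006, 0.015, 0.023 and 0.004. In them 0 of 7, 3 of 12, 2 of 12, 5 of 19 and 2 of 10 genes had an unadjusted p under 0.05, against 3957 of all 22180. Oas1g, an interferon-induced enzyme outside the list, rose at a slope of 0.18 ± 0.041 (SE; adjusted p = 0.00849). Speer4d, of a family of near-identical testis genes, rose at a slope of 0.27 ± 0.061 (SE; adjusted p = 0.00849) from low values, and its probes may share signal with the other copies. Genes also rose in lists with few calls. Lyz2 (0.033 ± 0.009, SE, adjusted p = 0.037) was the only 1 of 15 that rose on the type 2 alveolar list. Plet1 (0.069 ± 0.015, SE, adjusted p = 0.00504) and Atp6v0d2 were the 2 of 10 on the alveolar macrophage list. Chad, a cartilage protein, also rose (0.086 ± 0.024, SE, adjusted p = 0.0489). Of 12 skeletal muscle genes limma called 0, with 0 at an unadjusted p under 0.05 and a median slope of 0.055 over all arrays and -0.033 without the 2 arrays high in squamous and muscle genes. DM replicate 2, also high in Acta1, was kept in both fits.

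Slopes at 1 and 6 months came from other mice, each time against its own DM group. At 1 month 567 genes rose and 105 fell (2.56% and 0.473%), and at 6 months 261 and 36 (1.18% and 0.162%). Of the 131 genes rising at 12 months, 78 also rose at 1 month, 59.5% of these and 13.8% of the 1-month list. At 6 months 72 also rose, 55% of these and 27.6% of the 6-month list, and 67 rose at all 3 times. Of the 136 falling genes, 12 also fell at 1 month (8.82%, and 11.4% of that list), 9 at 6 months (6.62% and 25%) and 4 at all 3. A further 48 rising and 119 falling genes passed at 12 months and at neither earlier time, which does not show that their slopes differed.

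**Figure D5:**
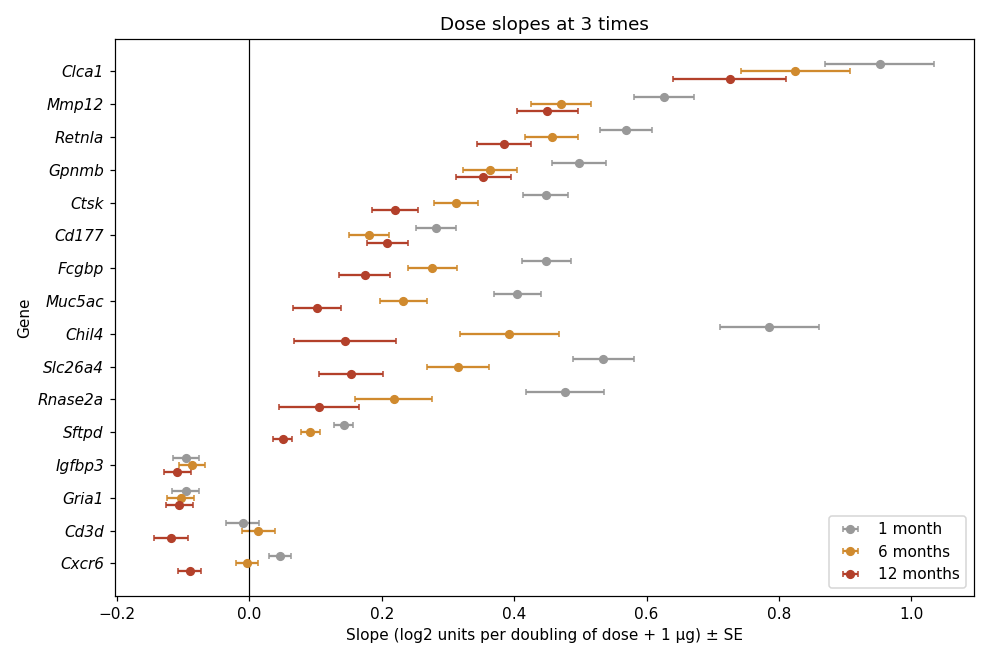
Dose slopes of 16 genes (horizontal axis, log2 units per doubling of dose + 1 µg, ± SE) at 1 month (grey), 6 months (orange) and 12 months (red). Clca1 has slopes of 0.95, 0.82 and 0.73, Chil4 of 0.79, 0.39 and 0.14, and Cxcr6 of 0.046, -0.004 and -0.090.

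The difference between slopes was tested directly. At 12 months 20 genes had a lower slope than at 1 month, 0.0902% of all, and 2 a higher one, 0.00902%. Against 6 months no gene passed (smallest adjusted p 0.304 in limma, and 2039 genes at an unadjusted p under 0.05). Chil4, a chitinase-like protein, had a slope of 0.79 at 1 month and 0.14 at 12, a difference of -0.64 ± 0.11 (SE; adjusted p = 0.000239). The slope of the anion exchanger Slc26a4 went from 0.53 to 0.15 (adjusted p = 0.00043), and that of Muc5ac from 0.40 to 0.10 (adjusted p = 0.000239). The slope of Ctsk, which still rose at 12 months, went from 0.45 to 0.22 (adjusted p = 0.0124).

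For the steepest genes the difference between times did not pass: its adjusted p was 0.464 for Clca1, 0.294 for Mmp12, 0.219 for Retnla and 0.35 for Gpnmb. Cxcr6 changed sides, from 0.046 at 1 month to -0.090 at 12 (difference -0.14 ± 0.024, SE, adjusted p = 0.000464), with the 1-month slope itself not past the test. Icos, a costimulatory receptor of T cells, went from 0.064 to -0.026 (adjusted p = 0.0277), while Cd3d did not differ past the test (adjusted p = 0.253). The 2 genes with higher slopes at 12 months were Spata31d1d (-0.058 to 0.098) and Scgb1c1 (-0.12 to 0.033), the latter a secretoglobin that did not rise at 12 months. Igfbp3 and Gria1 fell at all 3 times, with slopes of -0.096, -0.087 and -0.11, and of -0.096, -0.10 and -0.11.

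The trend was refitted with each array left out in turn. Of 54 rising genes named, 34 kept their call when any 1 of the 38 arrays was left out, among them Clca1, Mmp12, Retnla, Gpnmb, Ctsk, Cd177, Trem2 and Lcn2. The other 20 all lost it without 80 µg replicate 8, and without that array 66 genes rose and 55 fell in all. They were Saa3, Iglv1, Sprr1a, Clec4n, Ccl17, Scgb3a1, Atp6v0d2, Ccl6, Spata31d1d, Itgax, Cfb, C1qa, Chad, Il1rn, Ctsd, Cdhr3, Cfap61, Spata18, Ctsb and Lyz2. Their slopes without it were 79.6% to 98.6% of those with all arrays, and 4 of the 20 (Saa3, Iglv1, Scgb3a1 and Ctsd) lost the call in that omission alone. Of 31 falling genes named, 15 kept their call in every such omission, among them Cd3d, Cxcr6, Igfbp3, Gria1, Pdgfra, Tcf21 and Swap70. Another 13 lost it without 80 µg replicate 8 (Gucy1a1, Gucy1b1, Postn, Angpt1, Cxcr3, Ctsw, Prkg2, Fcrl1, Bank1, Fcrla, Ikzf3, Spib and BE692007), and the last 3, Npnt, Scube2 and Ube2cbp, without other arrays. The slopes of the 13 were 76.9% to 97.2% of those with all arrays when replicate 8 was left out, and Gucy1b1 and Prkg2 lost the call in that omission alone. With the 5th percentile of the array as a covariate 51 of the 54 and 13 of the 31 still passed, and 195 genes rose and 26 fell over the whole table. Postn, Npnt and Siglecg were among the falling genes that did not pass, with adjusted p-values of 0.19, 0.0679 and 0.086. By a line on the 38 arrays alone 44 of the 54 and 18 of the 31 passed in limma. Ctsw, Postn and Gucy1a1 were among those that did not, with adjusted p-values of 0.123, 0.109 and 0.144. Among the 22 arrays without the word replacement 35 of the 54 and 24 of the 31 passed, and among the 16 with it 7 and 0. In those 22 arrays, fewer than the 38, Cd3d had a slope of -0.11 (adjusted p = 0.0618) and Trem2 of 0.14 (adjusted p = 0.089).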

How the data were processed

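The deposited table holds log2 values for 41345 features on 139 arrays, for which the submitters' processing notes list RMA, oligo and limma with neither role nor version, per the labels. RMA corrects background, normalizes arrays to a common distribution and summarizes probes, which compresses differences of dim probes. The array's genome build was not given in the sources used here. Values ran from -0.05 to 13.28. Symbols came from the platform annotation, checked against RefSeq records (GRCm38.p6): 23521 features had 1 symbol, 1814 several and 16010 none, and 23328 matched RefSeq. Where features shared a symbol, the brightest on average was used, which left 22180 genes. The arrays came from 138 mice, since mouse 101 (1 µg, 1 month) had 2 arrays, which were averaged.

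A mean per group was fitted over all 18 groups in limma 3.58.1 (R 4.3.3, 120 residual degrees of freedom). The groups given 120 µg crocidolite are among them, and all groups share an estimate of the spread. Adjusted p-values come from this model, two-sided, with Benjamini-Hochberg adjustment over all genes, and 0.05 is the threshold. Groups of mice are described by lowest, highest and median value. The number of arrays limits the precision. Replicate numbers were given in accession order and serve as names only.

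Genes named are the 15 highest and 15 lowest slopes past the test (predicted genes, small RNAs and chemoreceptors passed over), the 2 largest per list, the 3 highest and 3 lowest differences between times, and a panel (Clca1, Mmp12, Gpnmb, Retnla, Ctsk, Trem2, Cd177, Cd3d, Cd3e, Cd3g, Col1a1, Timp1, Cxcl5 and Lcn2). Another 37 were chosen after their values were seen: Pigr, Ms4a7, Ccl22, Ccl6, Ccl9, Cxcl17, Muc5b, Muc5ac, Gp2, Agr2, Fcgbp, Fer1l6, Cd68, Itgax, Igf1, Clec4n, Slc6a20a, Sftpd, Icos, Rftn1, Cdhr3, Cfap61, Spata18, Pdgfra, Npnt, Scube2, Prdm6, Angpt1, Gucy1a1, Gucy1b1, Mylk, Vcl, Swap70, Jchain, Ctsb, Fabp5 and Lgals3. The groups of mice, the panel and the 45 gene lists (539 of 588 genes measured) were chosen with earlier results of these data known.

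On simulated data, with 200 of 22180 genes given a slope at 12 months, the model recovered 12% of slopes of 0.05, 75% of 0.1 and 100% of 0.2, and 10 of 134 calls were false. The simulated noise was normal and drawn separately for each gene and array, without outlying arrays or genes that vary together. These rates may therefore not hold for the measured arrays. Alternatives were other scalings, dose axes, sets of arrays, moderation and covariates. Figures were drawn with matplotlib 3.10.9.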

Additional observations from a re-analysis of the deposited data

Results flagged for a closer look

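A sample far from the others of its group, by Dixon's test at the 95% level, was found in 32 of 425 sets of a gene and a group (85 genes named, 5 groups), 7.53%, where chance gives about 1 in 20. Values are log2. At 80 µg, replicate 8 was the highest of its group for Cd177 (8.92), Pigr (10.54), Ctsk (8.10), Ccl22 (6.94), Itgax (8.37), Atp6v0d2 (9.02), Cxcr1 (6.62), Saa3 (7.31) and Slc7a11 (5.31), and replicate 6 for Cd3d (4.82). At 40 µg, replicate 2 stood apart for Saa3 (7.72) and Slc7a11 (5.87) above and Ccl3 (4.96) below the others, and replicate 8 for Cd177 (7.47) above and Vcl (9.28) below. At 10 µg, replicate 1 was high for Iglv1 (8.74) and replicate 4 low for Mmp12 (5.16).

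At 1 µg, replicate 2 was high for Ccl22 (5.38), Cd177 (6.76), Gp2 (4.99) and Scgb3a1 (9.43) and low for Gria1 (5.86) and Itga8 (9.64). Replicate 4 of that dose was high for Ccl3 (6.07) and Ctsw (5.57) and low for Trem2 (4.12). Among DM mice, replicate 2 was high for Clca1 (4.75) and low for Ctsw (4.93) and Cxcl17 (7.39), replicate 4 high for Bank1 (8.42) and Ikzf3 (7.57), and replicate 3 high for Prdm6 (7.12).

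Slopes at 12 and 1 month differed, by the test of the difference, for 22 genes. The 12-month minus 1-month slope was -0.64 for Chil4, -0.38 for Slc26a4, -0.37 for Rnase2a, -0.30 for Muc5ac, -0.27 for Fcgbp, -0.25 for Fer1l6, -0.23 for Ctsk, -0.17 for Slc6a20a, -0.14 for Cxcr6, and -0.09 for each of Sftpd, Icos and Rftn1. It was 0.16 for Spata31d1d and for Scgb1c1.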

How the results depend on the processing

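The sign of every gene named as rising or falling (85) stayed in all settings that gave it a value. These genes had passed the test on the same arrays, which most settings reuse, so a change of sign was unlikely from the start. The threshold was passed in 1280 of 1687 values with other settings and 2880 of 3230 with 1 array left out. Counts moved more. Rising genes (131) numbered 248 after quantile normalization (65.4% of calls rising, against 49.1%), 234 with arrays centred on their medians (68.4%), 343 with array weights, 231 in arrays without and 7 in arrays with the word replacement, 23 without DM, 50 without 1 µg, 18 without 80 µg, and 215 with the order of deposition as a spline. Falling genes (136) numbered 221 among genes brighter than the median, 44 by a line on the 38 arrays alone, 64 by their group means alone, 784 with array weights, 0 in arrays with the word (limma, 625 at an unadjusted p under 0.05), 17 without DM, 16 without 1 µg, 21 without 80 µg, 259 without the 2 squamous arrays, 26 with the 5th percentile and 346 with the spline. Of the 131 and 136, 101 and 23 were also called with the 5th percentile. Without the 3 arrays of low correlation 126 genes rose and 173 fell, and without the 2 squamous arrays 186 rose. Of the 54 rising and 31 falling genes named, 49 and 24 kept their call without the 3, and 51 and 30 without the 2.

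Genes differing between 12 and 1 month (22) numbered 54 with array weights and 7 in arrays without the word, those between 12 and 6 months 1 with weights, and departures from a line 26 with weights and 429 without the word. With 1 array left out, rising genes ranged from 66 to 250 and falling from 55 to 582. The extremes came without 80 µg replicate 8 and without DM replicate 2. Without 80 µg replicate 5 they were 215 and 310, without 40 µg replicate 7 173 and 222, and without 1 µg replicate 3 86 and 69. A further 14 arrays lowered the falling count by over 1.5 times when left out: DM replicates 1 and 3 to 7, 1 µg replicates 4 to 6, 40 µg replicates 1, 2 and 8, and 80 µg replicates 2 and 7, with 68 to 89 genes. The slope of Col1a1, -0.005, turned to 0.004 after quantile normalization (0.0038), 0.0016 after centring, 0.0008 on linear dose, 0.0493 in arrays with the word and 0.0088 without DM, and ran from -0.0191 to 0.0034 with 1 array left out. That of Cd3g was 0.006 in arrays with the word.

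The alternatives without the squamous arrays or those of low correlation, with the 5th percentile and with the spline were chosen after seeing the data. Where a count moved, the cause was not tested. No paired analysis was possible because the labels give the mice no replicate numbers shared between groups. The number of arrays limits small slopes most: with simulated noise drawn separately for each gene and array, a slope of 0.05 was found in 12% of cases. The spread between these mice includes technical spread, since each was measured on 1 array.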
